A study of Mus musculus with 8 samples.

Results

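The sphingosine 1-phosphate (S1P) pathway was examined through 9 genes chosen by name, which cover 3 receptors (*S1pr1*, *S1pr2*, *S1pr3*), the sphingosine kinases (*Sphk1*, *Sphk2*), the exporter *Spns2* and 3 enzymes that remove S1P (*Sgpl1*, *Sgpp1*, *Plpp3*). All 9 were found among the 49315 genes counted. RNA had been sequenced from brain endothelial cells (ECs) of 4 mutant and 4 wild-type mouse pups at postnatal day 9 (P9), with 1 library per pup. The mutant pups, of genotype *R26 GT-Map2k1-GFP*/+; *Tg-Cdh5CreER*+/-, express MAP2K1 with the activating K57N change in ECs and develop vascular malformations of the brain. At the *Rosa* locus the allele carries the mutant *Map2k1* cDNA and, after an IRES, GFP, driven by a CAG promoter and silent until Cre removes a loxP-flanked stop, and the *Cdh5* transgene drives a Cre recombinase that tamoxifen activates in ECs. Tamoxifen was injected into whole litters on postnatal day 1 (P1), so the control pups, labelled wild type, had received it as well, and both strains were kept on C57BL/6J. Only part of the ECs of a mutant brain carry the recombined allele. ECs were collected with beads that bind CD31, so a mutant library mixes recombined and unrecombined cells. Levels given below for mutant ECs are those of this mixture, not of the recombined cells alone. In such bulk samples, fewer cells of a type and less RNA per cell cannot be told apart.

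S1P is a lipid signal made inside cells when a sphingosine kinase adds a phosphate to sphingosine, which itself comes from ceramide. ECs export S1P through SPNS2, and S1P in blood acts on G protein-coupled receptors of the EC surface, of which S1PR1 is known for stabilising junctions, restraining sprouting and keeping the vessel barrier closed. S1P is removed by the lyase SGPL1, which cleaves it irreversibly, by SGPP1 and SGPP2, phosphatases of the endoplasmic reticulum that return it to sphingosine, and by PLPP1, PLPP2 and PLPP3, phosphatases of the cell surface that dephosphorylate S1P and lysophosphatidic acid.

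The sequences upstream of 4 phosphatase genes are shown because the differences between the groups were largest there, both among the members (*Sgpp1* and *Plpp3*) and among their close relatives (*Sgpp2* and *Plpp2*). Each line gives the 250 bases before the transcription start, 5′ to 3′ on the strand of the gene, from RefSeq on GRCm38.p6. The windows are chr12:75735730-75735979 on the minus strand for *Sgpp1*, chr1:78310096-78310345 on the plus strand for *Sgpp2*, chr4:105157097-105157346 on the plus strand for *Plpp3* and chr10:79533788-79534037 on the minus strand for *Plpp2*. Capitals mark the GC box (GGGCGG, or CCGCCC on the other strand), a motif that Sp and Klf factors bind.
Sgpp1: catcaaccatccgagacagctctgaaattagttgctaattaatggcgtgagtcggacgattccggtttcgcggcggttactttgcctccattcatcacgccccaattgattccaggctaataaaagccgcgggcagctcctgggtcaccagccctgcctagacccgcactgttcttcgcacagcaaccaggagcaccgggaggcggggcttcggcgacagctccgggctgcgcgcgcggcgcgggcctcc
Sgpp2: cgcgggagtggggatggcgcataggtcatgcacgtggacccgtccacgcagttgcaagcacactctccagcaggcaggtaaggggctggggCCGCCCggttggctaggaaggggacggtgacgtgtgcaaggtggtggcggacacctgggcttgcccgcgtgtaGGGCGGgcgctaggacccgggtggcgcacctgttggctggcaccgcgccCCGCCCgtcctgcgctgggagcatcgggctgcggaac
Plpp3: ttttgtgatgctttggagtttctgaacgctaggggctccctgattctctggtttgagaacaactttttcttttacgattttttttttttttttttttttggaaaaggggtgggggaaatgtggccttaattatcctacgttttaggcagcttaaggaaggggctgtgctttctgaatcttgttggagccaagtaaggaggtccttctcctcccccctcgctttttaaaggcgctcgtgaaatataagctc
Plpp2: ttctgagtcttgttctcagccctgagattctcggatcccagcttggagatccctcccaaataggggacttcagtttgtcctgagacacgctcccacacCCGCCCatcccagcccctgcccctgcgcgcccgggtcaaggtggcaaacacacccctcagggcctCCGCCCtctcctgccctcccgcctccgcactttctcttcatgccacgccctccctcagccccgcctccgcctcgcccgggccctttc
*Sgpp2* held 3 GC boxes and *Plpp2* 2, which did not overlap, while these letters were not found in the windows of *Sgpp1* and *Plpp3*. A GC box was present in 32.7% of the 32851 RefSeq windows of this length. The GC content was 61.2% for *Sgpp1*, 70.8% for *Sgpp2*, 65.6% for *Plpp2* and 42.4% for *Plpp3*, and the median of all windows was 52.4%. The letters of an AP-1 site (TGANTCA, in 6.75% of all windows), an ETS site (CCGGAAG, 6.91%) and a TATA box (TATAAA, 12.4%) were searched on both strands and were not found in these 4 windows. The genes and motifs shown were chosen after the values were seen, and a match describes letters only. A promoter window was found for 8 of the 9 members, all but *S1pr1*.

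Between 24833373 and 34196955 reads per mutant library and between 28146348 and 32208421 per wild-type library were counted on genes, and 16887 genes passed the filter on low counts. *Map2k1*, which is counted together with the transgene, had 12660 to 18687 normalized counts in mutant and 1502 to 1758 in wild-type libraries, so no library went against its label. The 10 EC markers summed to between 11220 and 13030 TPM (counts per exon length, scaled to the same total in each library) in mutant and between 12370 and 14650 in wild-type libraries. Of these 10, 6 passed edgeR's quasi-likelihood test at an adjusted p under 0.05, where 44.4% of all genes did. *Cdh5* (log2 fold change 1.11), *Emcn* (0.82) and *Pecam1* (0.53) were higher in mutants, and *Kdr* (-0.59), *Cldn5* (-0.47) and *Tek* (-0.44) lower. The summed markers of other cells lay below those of ECs. In mutant and wild-type libraries respectively, the sums ran from 511 to 1032 and from 587 to 1190 TPM for 9 genes of pericytes and smooth muscle, from 48.9 to 224 and from 64.6 to 326 for 5 of microglia and macrophages, from 367 to 467 and from 323 to 427 for 5 of fibroblasts, and from 18.9 to 39.1 and from 20.3 to 37.4 for 5 of platelets. Of the 9 genes of pericytes and smooth muscle, *Abcc9* (log2 fold change 1.78), *Kcnj8* (0.81) and *Tagln* (0.73) passed the same test, all higher in mutants. The other 6 did not pass. Of them, *Cnn1* (-0.63), *Rgs5* (-0.44), *Acta2* (-0.40) and *Myh11* (-0.39) were lower in mutants and *Pdgfrb* (0.22) and *Higd1b* (0.10) higher. Of the 5 fibroblast genes, *Lum* (0.67) and *Col1a1* (0.39) passed as higher in mutants and *Pdgfra* (-1.03) and *Col3a1* (-0.52) as lower. In 3 other lists the mutant sums were lower with no overlap. Red blood cell genes had 398 to 1314 against 2575 to 4302 TPM (6 genes). Oligodendrocyte genes had 15.3 to 35.6 against 51.1 to 154 (5 genes) and neuronal genes 20.5 or less against 22.5 to 49.9 (5 genes). Of the neuronal genes, 3 passed as lower, while *Rbfox3* went the other way (log2 fold change 1.19, adjusted p = 0.0514, same edgeR test). The 6 astrocyte genes summed to 714 to 838 in mutant and 444 to 498 TPM in wild-type libraries. Without the gap junction gene *Gja1*, left out after its values were seen, the other 5 summed to 7.87 to 24.8 and 10.2 to 22.4 TPM. Every listed marker had a mean count above 0 in both groups.

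The members moved in both directions, and most differences were small. All 9 passed the filter, and 4 of them differed between mutant and wild-type ECs at an adjusted p under 0.05, a share of 44.4%, which is also the share among all genes tested (44.4%). *Plpp3* and *S1pr1* rose, where 21.5% of all genes did, and *Sgpp1* and *Spns2* fell, where 22.9% of all genes did. *Sgpp1* alone also changed more than 2-fold, the further limit the study used, which 14% of all genes passed (5.9% higher and 8.05% lower in mutant ECs). The normalized counts of the groups were free of overlap in these 4 genes and in 42.5% of all genes. The median log2 fold change was 0.24 over the members and -0.02 over all genes.

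**Figure D1:**
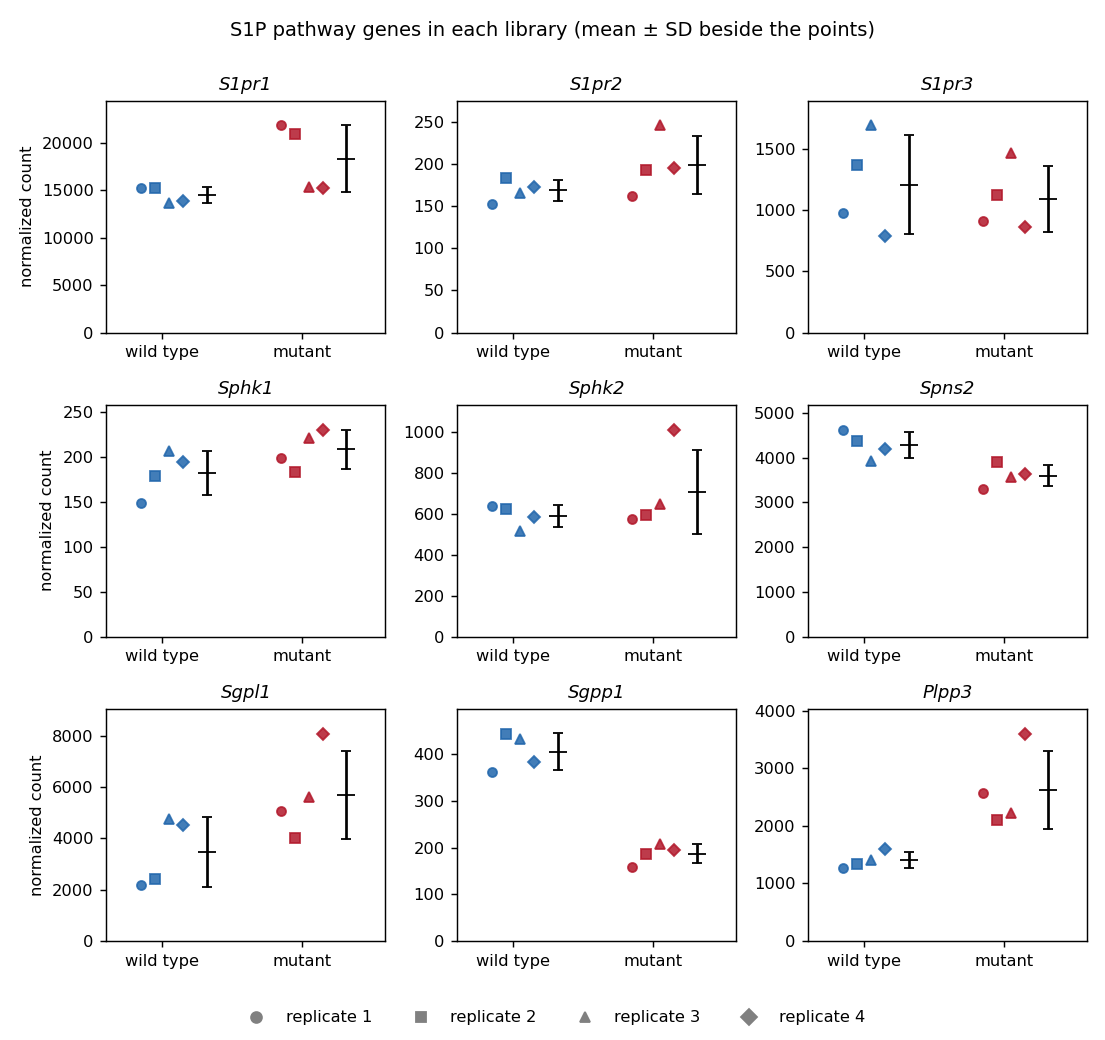
Normalized counts (linear axes from 0, each gene on its own axis) of the 9 genes in 4 wild-type (blue) and 4 mutant (red) libraries, with a symbol for each replicate number and the mean ± SD beside the points. *Sgpp1* is lower and *Plpp3* higher in every mutant library, *Sgpl1* splits the wild-type libraries into a low and a high pair, and *Sphk2* is high in mutant 4 (1012 normalized counts).

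*S1pr1* (ENSMUSG00000045092) (GRCm38, chromosome 3, 115710433 to 115715072, minus strand) encodes the main S1P receptor of ECs. Its normalized counts, which are scaled to a common library size, were 21847, 20904, 15368 and 15227 in mutants 1 to 4 and 15202, 15210, 13630 and 13870 in wild types 1 to 4. Mutants 1 and 2 stood well above all wild types, while mutants 3 and 4 lay just above the highest wild type. The means were 18337 ± 3531 (SD, n = 4) and 14478 ± 846 (SD, n = 4), so mutant ECs had 1.27 times the wild-type level (0.34 on the log2 scale, standard error 0.13; adjusted p = 0.0488 in edgeR's quasi-likelihood test). This call sits at the threshold. It was lost without mutant 1 (log2 fold change 0.27), mutant 2 (0.27) or any of the wild types 1 to 4 (0.38, 0.36, 0.32 and 0.32), with adjusted p between 0.0611 and 0.131. Of 16 alternative fits, 8 kept the call and 8 lost it. It was kept with a block for the label prefix described below (0.32, standard error 0.08, adjusted p = 0.00846, same edgeR test). A block for the replicate number also kept it (0.32, standard error 0.09, adjusted p = 0.016, same edgeR test). On the TPM scale the groups overlapped, from 616 to 847 in mutant and from 570 to 628 in wild-type libraries.

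*S1pr2* (ENSMUSG00000043895, chromosome 9, 20962361 to 20976781, minus strand) encodes another S1P receptor and was scarce. Mutants 1 to 4 had 163, 193, 247 and 195 normalized counts and wild types 1 to 4 had 153, 184, 166 and 174. The groups overlapped, and the log2 fold change of 0.24 (standard error 0.15, 95% interval -0.09 to 0.57) did not pass the test (adjusted p = 0.219, edgeR's quasi-likelihood test).

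*S1pr3* (ENSMUSG00000067586, chromosome 13, 51408618 to 51422797, plus strand) encodes a receptor found on vascular smooth muscle and pericytes as well as on ECs. It had 911, 1122, 1462 and 864 normalized counts in mutants 1 to 4 and 977, 1369, 1691 and 788 in wild types 1 to 4. Replicate 3 was the highest library in both groups and replicate 4 the lowest, and the log2 fold change was -0.15 (standard error 0.24, 95% interval -0.67 to 0.38, adjusted p = 0.638, edgeR's quasi-likelihood test). The summed markers of pericytes and smooth muscle had the same order in the wild types as *S1pr3*, with 776, 1041, 1190 and 587 TPM. In mutants 1 to 4 they were at 511, 755, 1032 and 660 TPM, again highest in replicate 3. Their part in the level of *S1pr3* was not tested.

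The kinases make S1P. *Sphk1* (ENSMUSG00000061878, chromosome 11, 116530925 to 116536674, plus strand), the kinase known for its response to growth factors, had 198, 183, 221 and 230 normalized counts in mutants 1 to 4 and 149, 178, 206 and 195 in wild types 1 to 4. The groups overlapped, and the log2 fold change was 0.20 (standard error 0.14, 95% interval -0.12 to 0.51, adjusted p = 0.291, edgeR's quasi-likelihood test).

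*Sphk2* (ENSMUSG00000057342, chromosome 7, 45709467 to 45718002, minus strand), whose product is largely found in the nucleus and on organelles, had 577, 594, 651 and 1012 normalized counts in mutants 1 to 4 and 638, 624, 517 and 584 in wild types 1 to 4. Mutant 4 stood apart, and the other 3 mutants lay within or close to the range of the wild types. It differed by 0.27 on the log2 scale (standard error 0.17, 95% interval -0.12 to 0.65, adjusted p = 0.235, edgeR's quasi-likelihood test) and 0.06 without mutant 4. Of its 4159 exonic bases, 373 are shared with the ribosomal protein gene *Rpl18* and 539 with the clock gene *Dbp*, both on the opposite strand, and whether strand was used in counting is not given in the sources used here, so its level is uncertain.

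*Spns2* (ENSMUSG00000040447, chromosome 11, 72451638 to 72489904, minus strand) encodes the transporter through which ECs release S1P. Mutants 1 to 4 had 3305, 3901, 3565 and 3639 normalized counts and wild types 1 to 4 had 4629, 4376, 3924 and 4193. The highest mutant (3901) lay just under the lowest wild type (3924). The gene fell by 0.25 on the log2 scale (standard error 0.08, adjusted p = 0.0217, edgeR's quasi-likelihood test), a level 1.19-fold higher in wild-type than in mutant ECs. The call was lost without mutant 1 (log2 fold change -0.18, adjusted p = 0.0833), mutant 4 (-0.23, 0.0516), wild type 1 (-0.19, 0.0866) or wild type 2 (-0.24, 0.0567, same edgeR test). Exons of *Spns2* share 131 of 4083 bases with *Mybbp1a* on the opposite strand.

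*Sgpp1* (ENSMUSG00000021054), on the minus strand of chromosome 12 from 75714248 to 75735729, encodes the S1P phosphatase whose upstream sequence opens the set above. Its normalized counts were 159, 188, 208 and 195 in mutants 1 to 4 and 362, 444, 434 and 384 in wild types 1 to 4. Every mutant library was well below every wild-type library. The means were 187 ± 20.6 (SD, n = 4) and 406 ± 39.5 (SD, n = 4), a 2.16-fold higher level in wild-type ECs, with a log2 difference of -1.11 (standard error 0.12, adjusted p = 7.55e-05, edgeR's quasi-likelihood test). By p it ranked 674 among the 16887 genes. The fall passed the test in all 16 alternative fits, with log2 fold changes between -1.18 and -1.02.

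*Plpp3* (ENSMUSG00000028517), on the plus strand of chromosome 4 from 105157347 to 105232764, encodes the cell surface phosphatase that limits lysophosphatidic acid and S1P outside ECs. It had 2578, 2103, 2215 and 3601 normalized counts in mutants 1 to 4 and 1268, 1343, 1408 and 1592 in wild types 1 to 4. All mutants were above all wild types, and mutant 4 was the highest. The means were 2624 ± 682 (SD, n = 4) and 1402 ± 138 (SD, n = 4), and the gene rose 1.87-fold, by 0.90 on the log2 scale (standard error 0.16; adjusted p = 0.00108 in edgeR's quasi-likelihood test). The rise passed the test in all 16 alternative fits (log2 fold changes 0.74 to 1.00). *Plpp3* is also abundant in astrocytes. The 6 astrocyte markers summed to 714 to 838 TPM in mutant and 444 to 498 TPM in wild-type libraries, higher in mutants as *Plpp3* was, and nearly all of that sum was *Gja1*, which ECs can express too and which rose (log2 fold change 0.80). The other 5 summed to 7.87 to 24.8 and 10.2 to 22.4 TPM. The part of astrocyte RNA in the level of *Plpp3* was not tested.

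*Sgpl1* (ENSMUSG00000020097), on the minus strand of chromosome 10 from 61098642 to 61147703, encodes the S1P lyase and was the most variable member. Mutants 1 to 4 had 5080, 4015, 5606 and 8075 normalized counts and wild types 1 to 4 had 2178, 2397, 4747 and 4522. Wild types 1 and 2 were at about the same low level, wild types 3 and 4 at a level close to that of mutants 1 and 2, and the groups overlapped. The log2 fold change was 0.72 (standard error 0.28) and missed the threshold (adjusted p = 0.0601, edgeR's quasi-likelihood test). The standard deviation was 39.3% of the mean in wild-type and 30.2% in mutant libraries, against 5.85% and 19.3% for *S1pr1*. Without mutant 2, wild type 3 or wild type 4, *Sgpl1* passed the test (log2 fold changes 0.86, 0.91 and 0.87).

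The low and high wild types of *Sgpl1* follow the sample labels, which carry 3 prefixes. Replicates 1 and 2 of both groups share 1 prefix, replicate 3 of both groups another and replicate 4 of both groups the last. The sources used here do not say what a prefix stands for. Wild-type pups had been matched to mutants within litters, but which libraries share a litter is not given. Within the prefix of replicates 1 and 2, *Sgpl1* was higher in mutants by 0.98 on the log2 scale, within that of replicate 3 by 0.24 and within that of replicate 4 by 0.84. With the prefix as a block in the fit, *Sgpl1* rose (0.76 on the log2 scale, standard error 0.13, adjusted p = 0.00146, edgeR's quasi-likelihood test). The direction was the same in all 3 prefixes for *Sgpp1* (-1.21, -1.06 and -0.97), *Plpp3* (0.84, 0.65 and 1.18), *S1pr1* (0.49, 0.17 and 0.13), *Spns2* (-0.33, -0.14 and -0.20), *Sphk1* (0.23, 0.10 and 0.24) and *S1pr2* (0.08, 0.56 and 0.17). *S1pr3* (-0.19, -0.21 and 0.13) and *Sphk2* (-0.11, 0.33 and 0.79) turned sign between prefixes. The prefixes of replicates 3 and 4 hold 1 library per group, so their values have no error.

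**Figure D2:**
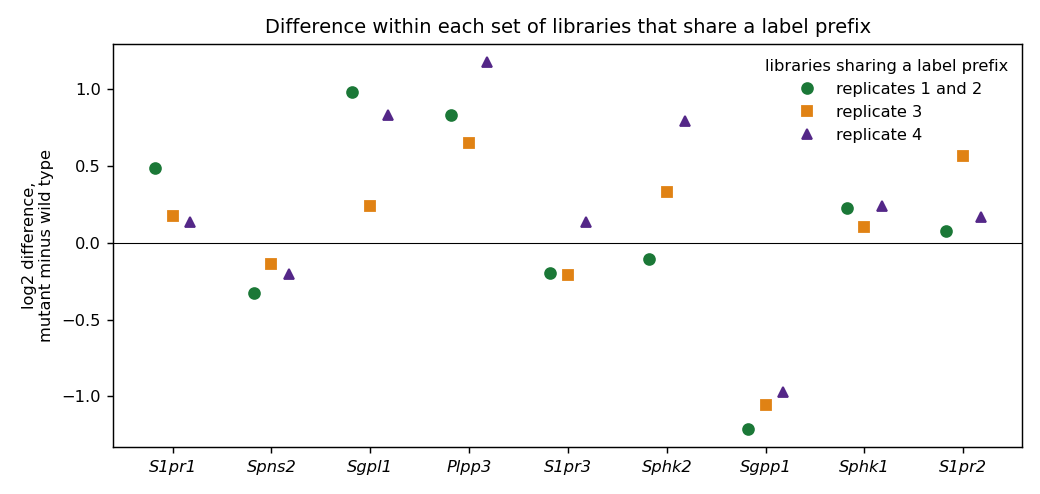
Difference in mean log2 normalized count (mutant minus wild type, y axis) for each of the 9 genes, within each of 3 sets of libraries that share a label prefix. *Sgpp1* lies near -1 in every set, *Plpp3* between 0.65 and 1.18, and *Sgpl1* between 0.24 and 0.98.

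The members covered a wide range of levels per exon length. In wild-type ECs *S1pr1* was highest with 605 ± 26.8 TPM (SD, n = 4), followed by *Spns2* (133 ± 6.33), *Sgpl1* (72.2 ± 29.8), *Plpp3* (56.6 ± 5.83), *S1pr3* (34.5 ± 12.6), *Sphk2* (18.1 ± 1.19), *Sgpp1* (15.6 ± 1.83), *Sphk1* (4.87 ± 0.782) and *S1pr2* (2.71 ± 0.212). The ranges of neighbours in this order overlapped for *Sgpl1* and *Plpp3*, for *Plpp3* and *S1pr3* and for *Sphk2* and *Sgpp1*. In mutant ECs *S1pr1* (732 ± 129 TPM, SD, n = 4) was again first, and *Sgpl1* (113 ± 35.2), *Spns2* (108 ± 8.91) and *Plpp3* (101 ± 26.8) followed with overlapping ranges. *S1pr3* (29.7 ± 7.83) and *Sphk2* (20.8 ± 6.23) also overlapped, as did *Sgpp1* (6.89 ± 0.892) and *Sphk1* (5.32 ± 0.610), and *S1pr2* (3.06 ± 0.585) was last. The exporter therefore stood apart as the second gene in wild-type libraries, while in mutant libraries its range overlapped those of *Sgpl1* and *Plpp3*.

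**Figure D3:**
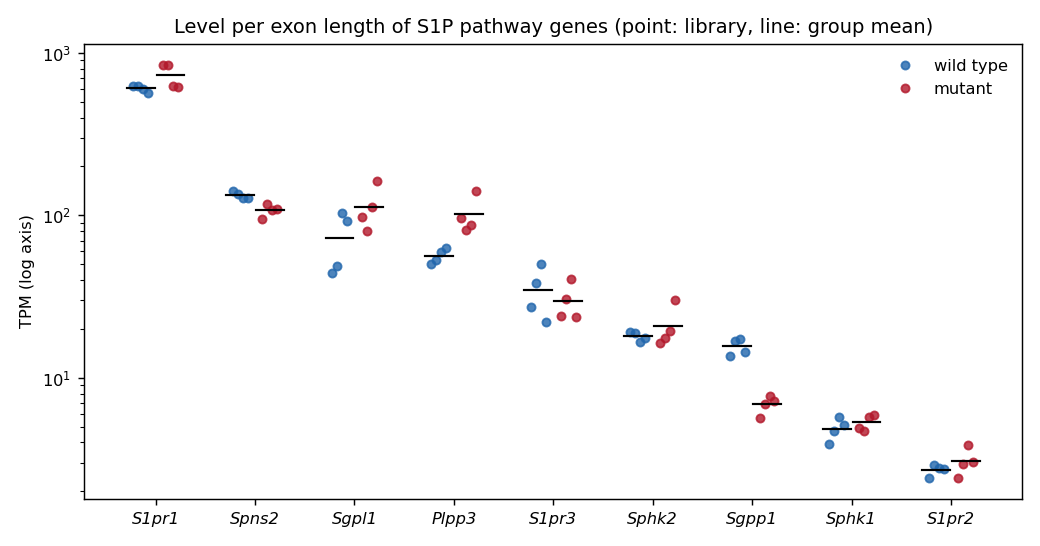
Level of the 9 genes in TPM (log axis), ordered by the wild-type mean, with 1 point per library (blue wild type, red mutant, n = 4 each) and a black line at each group's mean. *S1pr1* is the highest gene in all 8 libraries, and *Sgpp1* shows the widest gap between the groups.

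*S1pr1* took most of the receptor transcripts. Of the summed TPM of the 5 receptor genes, it made up 91.9% to 95.6% in mutant and 90.6% to 94.4% in wild-type libraries, *S1pr3* 2.71% to 5.94% and 3.64% to 7.63%, and *S1pr2* 0.273% to 0.563% and 0.362% to 0.452%. These ranges overlapped for all 3 receptors. *Sphk1* made up 16.5% to 23.0% of both kinases in mutant and 16.9% to 25.8% in wild-type libraries, also with overlap. The remaining receptors are best known from blood and glial cells. *S1pr4*, a receptor of lymphoid and myeloid cells, had 192 to 241 normalized counts in mutant and 140 to 246 in wild-type libraries (log2 fold change 0.12, 95% interval -0.28 to 0.53, adjusted p = 0.612, edgeR's quasi-likelihood test). Per exon length *S1pr4* averaged 10.5 TPM in mutant and 10.1 TPM in wild-type libraries, above *S1pr2* (3.06 and 2.71 TPM). *S1pr5*, a receptor of oligodendrocytes, had 3.31 to 12.2 normalized counts in mutant and 5.26 to 26.7 in wild-type libraries. Its log2 fold change of -1.23 (95% interval -2.42 to -0.05, unadjusted) did not pass (adjusted p = 0.0847, same edgeR test). All 5 oligodendrocyte markers fell in mutant libraries, and the part of oligodendrocyte RNA in the level of *S1pr5* was not tested.

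Beyond the members, 54 further genes of S1P and sphingolipid metabolism and S1P signalling were examined in 3 lists. Of the 50 genes tested, 24 passed the test (48% against 44.4% of all genes), 13 of them higher and 11 lower in mutant ECs. Of the 50 tested, 5 passed the test and also changed more than 2-fold, where 14% of all genes passed both limits. In the list of 8 that holds the close relatives of the members, 4 passed (50% against 44.4% of all genes), 2 higher and 2 lower. The median log2 fold change was 0.08. *Plpp2* (ENSMUSG00000052151, chromosome 10, 79526430 to 79533787, minus strand) had 822, 715, 623 and 871 normalized counts in mutants 1 to 4 and 47.8, 60.0, 56.9 and 32.6 in wild types 1 to 4. It was thus low in all wild types and rose 15.3-fold (log2 fold change 3.93, standard error 0.19, adjusted p = 6.24e-07, edgeR's quasi-likelihood test). *Plpp1*, the third surface phosphatase, rose 1.44-fold (log2 fold change 0.52, standard error 0.14, adjusted p = 0.0122, same edgeR test), with mutants between 2154 and 3673 and wild types between 1910 and 2275 normalized counts, which overlapped. Since *Plpp2* started from 3.83 TPM in wild-type ECs, it reached 56.1 ± 7.81 TPM (SD, n = 4) in mutant ECs, below *Plpp3* (101 TPM) and *Plpp1* (221 TPM).

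*Sgpp2* (ENSMUSG00000032908, chromosome 1, 78310345 to 78420289, plus strand), the other S1P phosphatase of the endoplasmic reticulum, fell with *Sgpp1*. Its normalized counts were 49.3, 190, 243 and 79.9 in mutants 1 to 4 and 1324, 1241, 697 and 1062 in wild types 1 to 4. The groups lay far apart, and mutants 1 and 4 were below mutants 2 and 3. The log2 difference was -2.94 (standard error 0.42, adjusted p = 3.13e-04, edgeR's quasi-likelihood test), which is 7.69-fold lower. In wild-type ECs *Sgpp2* was 2.20 times the level of *Sgpp1* per exon length, and in mutant ECs 0.626 times. *Mfsd2b*, the S1P exporter of red blood cells and platelets, had 115 to 204 normalized counts in mutant and 102 to 137 in wild-type libraries (log2 fold change 0.31, 95% interval -0.12 to 0.74, adjusted p = 0.217, same edgeR test). Of the rest of this list of 8, *Aldh3a2*, which oxidises the aldehyde that the lyase releases, fell by 0.54 on the log2 scale (adjusted p = 5.98e-04, same edgeR test), and the S1P carrier *Apom* was listed with 8.27 and 8.25 normalized counts on average.

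**Figure D4:**
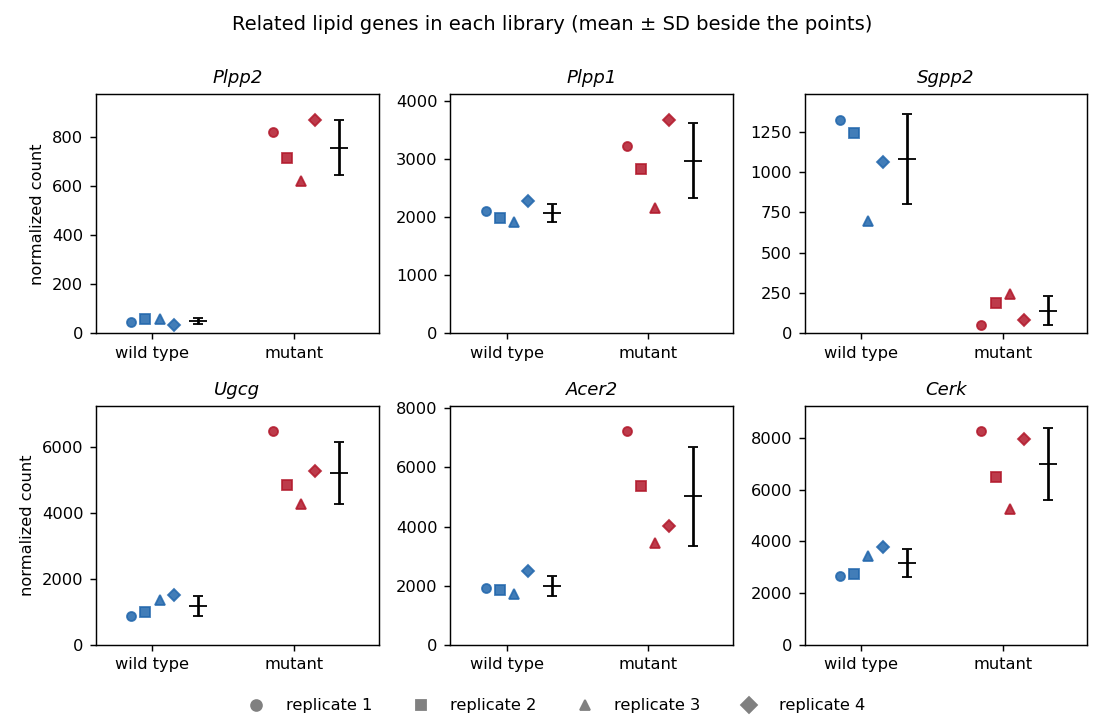
Normalized counts (linear axes from 0) of *Plpp2*, *Plpp1*, *Sgpp2*, *Ugcg*, *Acer2* and *Cerk* in 4 wild-type (blue) and 4 mutant (red) libraries, with the mean ± SD beside the points. The groups are apart in all but *Plpp1*, with *Sgpp2* lower and the others higher in mutant libraries.

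Sphingolipid synthesis and ceramide turnover supply the sphingosine from which S1P is made. Of the 30 genes of this list, 26 were tested and 13 passed (50% against 44.4% of all genes), 7 higher and 6 lower in mutant ECs (21.5% and 22.9% of all genes), with a median log2 fold change of 0.08. *Ugcg*, the glucosylceramide synthase, rose 4.44-fold (log2 fold change 2.15, standard error 0.19, adjusted p = 1.91e-05, edgeR's quasi-likelihood test), with 6497, 4852, 4268 and 5290 normalized counts in mutants 1 to 4 and 865, 983, 1362 and 1504 in wild types 1 to 4. *Acer2*, a ceramidase of the Golgi that frees sphingosine, rose 2.52-fold (log2 fold change 1.33, standard error 0.21, adjusted p = 6.52e-04), and *Cerk*, the ceramide kinase, 2.22-fold (1.15, standard error 0.16, adjusted p = 2.82e-04, same edgeR test). These 3 genes are named for their size of change, and in each the lowest mutant exceeded the highest wild type, where 42.5% of all genes had no overlap. Among smaller differences, the ceramidases *Asah2* (log2 fold change 0.75) and *Acer3* (0.53) rose and *Asah1* did not pass the test (-0.04, 95% interval -0.22 to 0.14), while *Ormdl3* (-0.94), an inhibitor of the first step of sphingolipid synthesis, and the sphingomyelinases *Smpd2* (-0.71) and *Smpd1* (-0.52) fell. *Smpd3*, another sphingomyelinase, had a log2 fold change of -0.53 and did not pass (adjusted p = 0.109, same edgeR test). The subunits *Sptlc1* (0.12, 95% interval -0.06 to 0.29) and *Sptlc2* (0.07, -0.07 to 0.21) of the enzyme that starts the synthesis did not pass the test. *Sptssa* (-0.37), a small subunit of the same enzyme, fell. Of the relatives of *Ormdl3*, *Ormdl1* (-0.48) fell and *Ormdl2* (-0.02, 95% interval -0.31 to 0.28) did not pass.

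S1P receptors act through G proteins and are switched off by a kinase and arrestins. Of the 16 genes of this list, all were tested and 7 passed (43.8% against 44.4% of all genes), 4 higher and 3 lower in mutant ECs, and none changed more than 2-fold, where 14% of all genes did. *Arrb1*, an arrestin, had the largest difference (log2 fold change 0.92, standard error 0.11, adjusted p = 1.20e-04, edgeR's quasi-likelihood test). The G protein subunits *Gna12* (0.59), *Gna13* (0.55) and *Gnai3* (0.47) rose, and *Tiam1* (-0.61), an activator of Rac, *Gna11* (-0.37) and the receptor kinase *Grk2* (-0.16) fell. *Gnai2*, at 42481 normalized counts in mutant and 40163 in wild-type ECs the G protein with the most counts of this list, had a log2 fold change of 0.08 (95% interval -0.15 to 0.31, adjusted p = 0.559, same edgeR test).

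**Figure D5:**
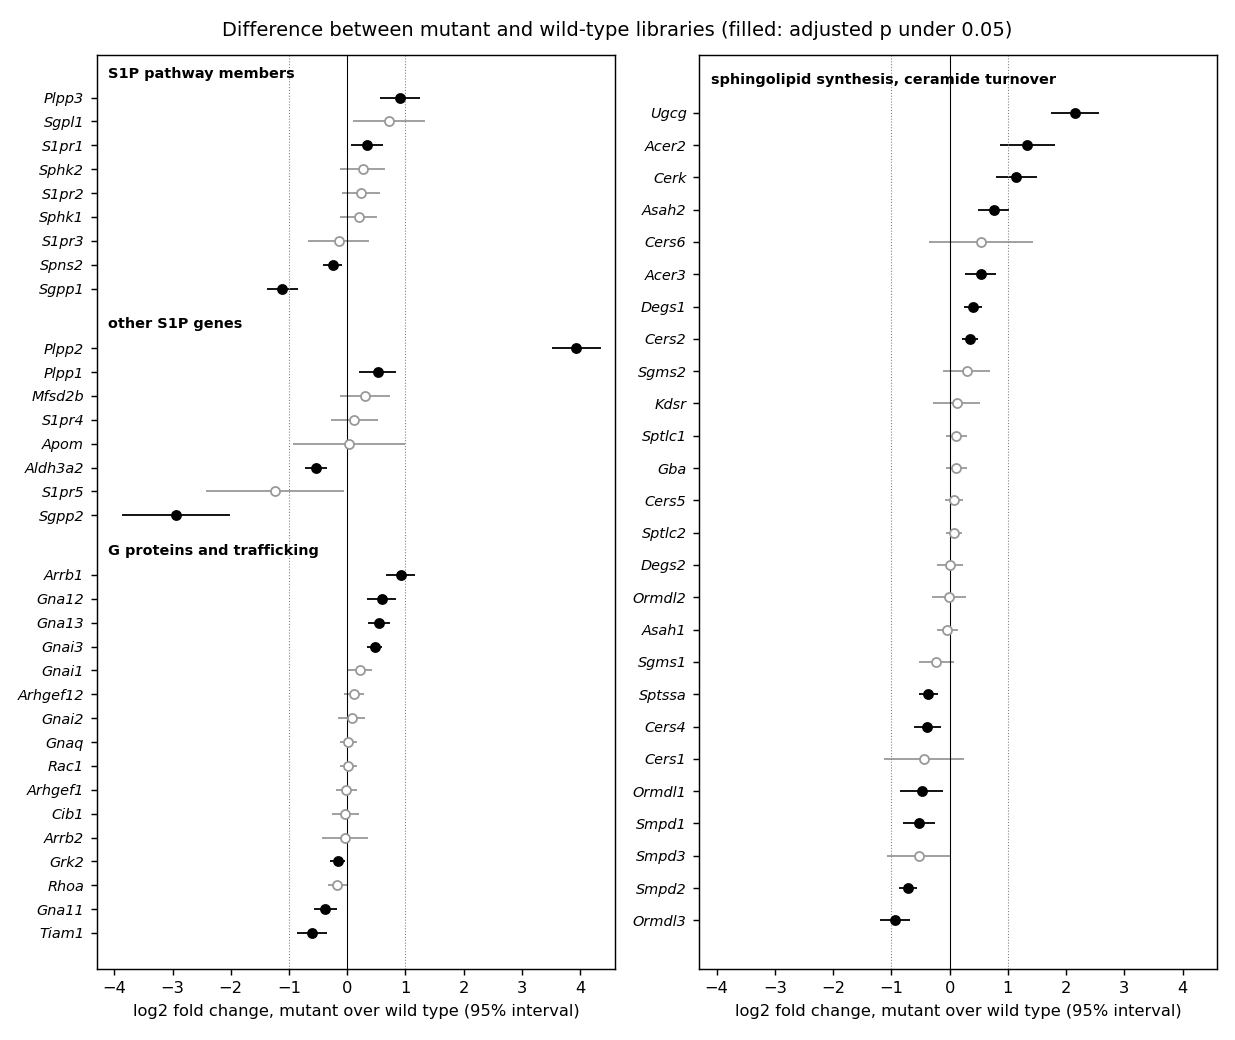
Log2 fold change of mutant over wild type (x axis) with its 95% interval, unadjusted, for the 9 members and the 50 tested genes of the related lists (filled: adjusted p under 0.05, dotted lines: 2-fold). *Plpp2* (3.93) and *Sgpp2* (-2.94) lie farthest from 0, and *Sgpp1* is the member with the largest difference.

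The genes whose pattern over the 8 libraries was closest to that of *Sgpp1*, the only member past both limits, were *Plgrkt*, *Cdh6* and *Mettl24*. Their Euclidean distances in centred log2 CPM (counts scaled to library size) were 0.265, 0.286 and 0.293, and their log2 fold changes were -1.12, -1.10 and -1.11.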

How the data were processed

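RNA-seq libraries of CD31-selected brain ECs from 4 mutant and 4 wild-type P9 pups were used. Per the study's methods, the authors trimmed reads with Trimmomatic and mapped them with STAR to GRCm38, and they deposited whole-number counts per gene for each library, with exon positions and the summed exon length. The counting program, the annotation release and the strand setting are not given in the sources used here. A deposited table of counts divided by DESeq2 size factors was not used.

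Of 49315 identifiers, 48970 matched a symbol. The counts were fitted with edgeR 4.0.16 under R 4.3.3: TMM scaling, filterByExpr with a minimum count of 10, and the quasi-likelihood test (glmQLFit, glmQLFTest) on all 8 libraries with no covariate, with Benjamini-Hochberg adjustment over all 16887 genes tested. A gene passed the test at an adjusted p under 0.05. Normalized counts are TMM-scaled to the mean library size. TPM were computed from the counts and the exon lengths in the files. Intervals are 95% and unadjusted. Libraries of the same group differed by more than sampling noise (chi-square per degree of freedom 7.41 to 42.8 over 12 pairs).

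The genes and lists were chosen with earlier results of these data known. Named are all members, the genes of the lists that changed more than 2-fold, close relatives of the members, and the 3 genes nearest in pattern to a member past both limits. Other list genes in the text were named after their values were seen. Alternatives were DESeq2 1.42.0, other scalings and filters, blocks for the replicate number and the label prefix, and each library left out in turn.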

Additional observations from a re-analysis of the deposited data

Results flagged for a closer look

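*Sphk2* in mutant 4 stood apart from the other mutants, with 1012 normalized counts against 577 to 651, a gap of 0.83 of the range of the group. Such a gap is expected by chance in about 1 in 20 groups, and 1 of the 18 groups of 4 libraries checked had it. *Rpl18*, which shares exonic bases with *Sphk2* on the opposite strand, had 15871 normalized counts in mutant 4 and 12570 to 14971 in the other mutants, and *Dbp* had 116 and 68.4 to 89.5. In wild types *Rpl18* had 9907 to 11277 normalized counts and *Dbp* 204 to 324, where *Sphk2* had 517 to 638. The part of these overlapping genes in the level of *Sphk2* was not tested. *Plpp3* and *Sgpl1* were also highest in mutant 4.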

How the results depend on the processing

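Each member was refitted in 16 alternatives, which gave 144 log2 fold changes, and 125 of them kept their direction and their side of the threshold. *Sgpp1*, *Plpp3*, *S1pr2*, *Sphk1* and *Sphk2* did so in all 16. *S1pr1* missed the threshold with library size only (0.28) and with upper quartile normalization (0.27), and ranged from 0.27 to 0.44 with a library left out. *Spns2* ranged from -0.29 to -0.18 with a library left out, and lost its call in 4 of these 8 fits. *S1pr3* turned sign without wild type 3 (0.063) and otherwise reached -0.32. *Sgpl1* passed the test without a filter on low counts (0.71), and ranged from 0.52 to 0.91 with a library left out. The number of members that passed the test was between 2 and 4 with a library left out (all genes 6352 to 7319, against 7504 in all 8 libraries), with 1 to 2 higher and 1 to 2 lower, and 1 member was higher with library size only and with upper quartile normalization. Over all genes, 2356 passed the test and changed more than 2-fold, and 1201 when a mean of at least 100 counts was required. The cause was not tested for any of these, except that the last setting tests fewer genes. Same-numbered mutant and wild-type libraries deviated from their group means with correlations of 0.20, 0.21, 0.29 and 0.02. Not every library correlated best with its own number, so the numbers were not taken to pair the libraries. This check cannot decide whether the litter matching follows the label prefixes. Mutants 1 and 2 correlated at 0.17 to 0.25 with wild types 1 and 2. Mutant 4 correlated at 0.38 with wild type 3 and at 0.02 with wild type 4. With a replicate block *Sgpl1* passed the test (0.76), as it did with the label prefix block (0.76), and 5 members passed with either block, as 8162 (replicate) and 8610 (prefix) of all genes did. The blocks changed no other call of a member. Depth limits *S1pr5*, which had 31 counts or fewer in each library.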
